A study of Homo sapiens with 9 samples.

Results

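H3K4ox is histone H3 whose lysine 4 has lost its amino group by oxidation, a reaction attributed to the copper-dependent amine oxidase LOXL2. The regions described here are the short H3K4ox peaks that both ChIP-seq replicates of MDA-MB-231 cells hold. They are the autosomal peaks of replicate 1 that are at most 3000 bp long and overlap a replicate 2 peak by 1 bp or more. The rule found 9553 such regions among 24672 autosomal peaks of replicate 1, or 38.7%, and among 26778 peaks in all. They were chosen by measured values, the length and the overlap of the ChIP-seq peaks, so these regions being short and shared is no finding. They made up 69.7% of all autosomal peaks of at most 3000 bp in replicate 1.

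MDA-MB-231 is an established human cell line of triple-negative breast cancer, and no label gives a treatment or genotype for the ChIP-seq cells. The H3K4ox antibody was made in house against modified peptides. The series also holds 1 ChIP-seq library for total H3, 1 ATAC-seq library each of LOXL2-depleted (shLOXL2) and shControl cells, and RNA-seq libraries of the same conditions, which were not used here. The single ATAC peak list is named for shLOXL2 but cited by the labels of both ATAC libraries, so its condition is not settled and no comparison of conditions was made.

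Lysine 4 of histone H3 carries methyl marks at active promoters and enhancers, which makes its oxidation a loss of a residue that activating enzymes and readers use. H3K4ox has been linked to compacted chromatin in breast cancer cells. ATAC-seq uses a transposase that inserts into open DNA, so its peaks mark accessible chromatin and give a readout that did not enter the choice of the regions.

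Values are given for replicate 1, with replicate 2 beside them from the mirrored rule, which takes replicate 2 peaks of at most 3000 bp that overlap replicate 1 and found 9496 of 25150 autosomal peaks. Because the rule makes the replicates share most regions, their closeness is partly built in. The short shared peaks are set beside 3 other autosomal classes of replicate 1. These are 4144 short peaks of that replicate alone, 2745 peaks of 3 to 4 kb and 8230 long peaks of 4000 bp or more. Peaks of 1 library are not replicates of a condition, and there are 2 ChIP-seq libraries and 1 ATAC list, so no test was made and differences between classes are descriptions. Intervals on shares are exact Clopper-Pearson intervals at 95% and cover counting error only. The sequencing depth of the libraries is unknown, because the lists hold only tags inside peaks, 3639789 in replicate 1 and 3515174 in replicate 2.

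The short shared peaks carried fewer H3K4ox tags per length than long peaks. A short shared peak had a median of 82 tags in replicate 1, spread over a median length of 1996 bp, and 78 tags over 1997 bp in replicate 2. This came to a median of 40.6 tags per kb in replicate 1 (quartiles 36.1 and 45.0), against 48.3 tags per kb for long peaks (quartiles 44.9 and 51.4). Replicate 2 gave 38.9 tags per kb for short shared peaks and 46.2 for long peaks. Short peaks of 1 replicate alone had the lowest class median, 37.3 tags per kb in replicate 1 and 35.6 in replicate 2. They were also shorter, with a median of 1371 bp in replicate 1. Short shared peaks of 1 to 1.5 kb had a lower median still, 35.2 tags per kb in replicate 1 and 33.6 in replicate 2. Short shared peaks in every other length band had a higher one. Short peaks of 1 replicate alone were not split by length, so these 2 classes were not compared at equal length. In replicate 1 the interquartile ranges of short shared and long peaks overlapped only between 44.9 and 45.0 tags per kb. Tags and length come from the same reads as the rule, so these values describe the choice and support nothing.

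Inside the class, tag density and score went up with length by rank, whereas fold went down. Among short shared peaks of 1 to 1.5 kb the median was 35.2 tags per kb in replicate 1, and among those of 2.5 to 3 kb it was 43.8. The score, read as 10 times the negative log10 of the peak p-value, had medians of 69.6 and 142 in these bands. The authors' fold enrichment ran the other way, with medians of 6.92 at 1 to 1.5 kb and 6.08 at 2.5 to 3 kb. Over all 9553 regions, length had a Spearman rho of 0.407 with tags per kb, 0.507 with score and -0.17 with fold. These points share 1 library and its depth. Replicate 2 gave 0.386, 0.496 and -0.17. The median fold of the class, 6.39, lay close to 6.49 of the long peaks, whereas the medians for score were 99.9 and 287. Short peaks of replicate 1 alone were weaker calls, with a median score of 60.7 in a list whose lowest score is 50. A score of at least 100 was reached by 7.41% of them, against 49.9% of short shared peaks. Comparisons with this class therefore set weaker calls beside stronger ones.

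**Figure D1:**
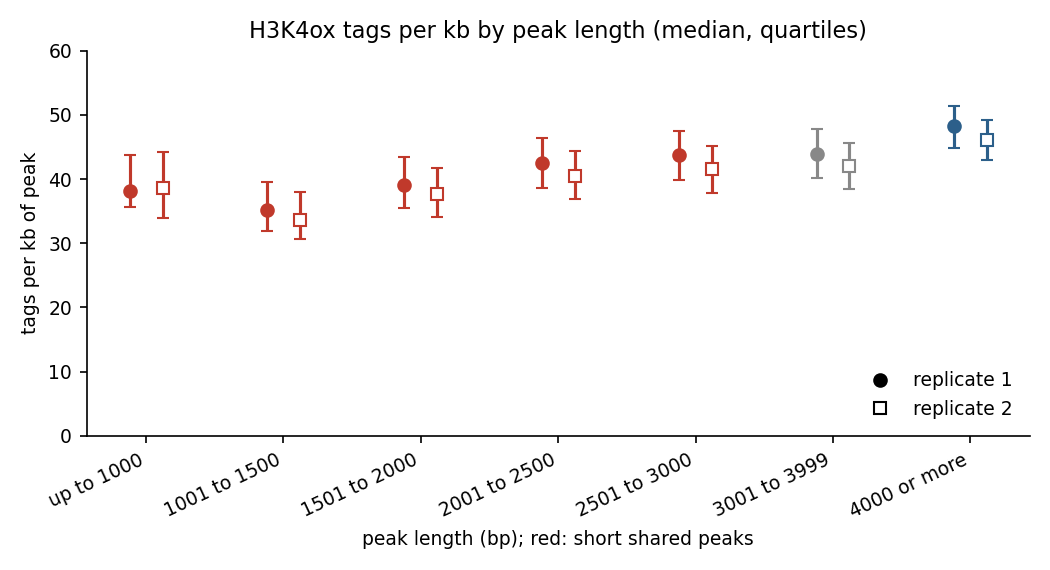
Tags per kb of peak (vertical axis) by peak length in bp, as medians with quartiles for replicate 1 (filled circles) and replicate 2 (open squares). The 5 red bands are short shared peaks, grey is peaks of 3 to 4 kb and blue is long peaks; between 1 to 1.5 kb and 2.5 to 3 kb the replicate 1 median goes up by band, and long peaks have the highest median at 48.3.

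The share of short peaks that the other replicate also held climbed with length. Only 119 of 1084 replicate 1 peaks of at most 1 kb were shared, against 1450 of 2897 peaks of 1 to 1.5 kb, or 50.1%. The share was 76.2% at 1.5 to 2 kb, 85.9% at 2 to 2.5 kb and 88.4% at 2.5 to 3 kb. Length and overlap are the values that the rule used, so these shares describe the choice and support nothing. A longer peak meets an overlap of 1 bp more easily, and score also went up with length. The class therefore holds few peaks below 1 kb, and 3229 regions, the most of any band, lay between 1.5 and 2 kb. Just inside the length limit, the 127 shared peaks within 50 bp of it had medians of 42.3 tags per kb and a score of 147. Just outside, 149 shared peaks had medians of 43.6 tags per kb and a score of 150 to the nearest whole number, so the values run on across the limit.

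Most short shared peaks had a replicate 2 partner of similar size, though less often than long peaks did, and the rule itself required the overlap in place. The partner was itself at most 3000 bp long for 8090 of the 9553 regions, or 84.7% (95% interval 83.9 to 85.4). Its length had a median of 2082 bp, and a median ratio of 1.03 to that of the replicate 1 peak (quartiles 0.92 and 1.20). It covered a median of 95.3% of the replicate 1 peak. At least 50% of the region was covered in 98.9% of cases. The summits, the points of highest tag pileup within each peak, lay a median of 160 bp apart over the 9469 regions with 1 partner. For long peaks with 1 partner the summits lay 438.5 bp apart, with an upper quartile of 2117 bp against 400 bp for short shared peaks. Long peaks had a median length of 4876 bp, which leaves more room between summits, and the distances were not scaled by length. On a scale that has 0 at a peak's start and 1 at its end, the summit had quartiles of 0.404 and 0.617 in short shared peaks and 0.281 and 0.721 in long peaks of replicate 1. Replicate 2 gave 0.396 and 0.616 for short shared peaks and 0.284 and 0.728 for long peaks, so the highest point of a short shared peak lay nearer its centre. Short peaks of 1 replicate alone had nearly the same quartiles, 0.381 and 0.615 in replicate 1 and 0.391 and 0.621 in replicate 2. Tags per kb of a region in the 2 replicates had a Spearman rho of 0.65, and folds one of 0.462, both over 9553 regions that the rule required in each library.

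A minority of the short shared peaks had another peak close by, and many of these met a long peak in replicate 2. In replicate 1, 1484 of the 9553 regions, or 15.5% (95% interval 14.8 to 16.3), lay within 1 kb of another peak of the same list, against 232 of 8230 long peaks, or 2.82%. In replicate 2 these shares were 15.8% and 2.67%. For 1172 of the 1484, that neighbour was also a short shared peak. Of the regions with such a close neighbour, 599, or 40.4%, overlapped a replicate 2 peak of 4000 bp or more, against 140 of 7115 regions with no neighbour within 5 kb, or 1.97%. In all, 759 regions had a long partner, and 78.9% of these had a neighbour within 1 kb. When peaks with at most 1000 bp between them were joined, 683 of the 890 blocks that held a short shared peak reached 4000 bp, with a median block length of 4538.5 bp. Joining was chosen after seeing the data. The regions with a neighbour within 1 kb had a median of 39.0 tags per kb, against 41.0 for the regions with no neighbour within 5 kb.

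The closest pair shows this directly. On chromosome 5 (GRCh37 throughout), a region at 7232663 to 7234331 with 69 tags was followed after a gap of 1 bp by a region at 7234333 to 7237156 with 127 tags. In replicate 2 a single peak of 4894 bp with 218 tags, at 7231777 to 7236670, overlapped both. The region with the highest score in the class has the same form. It lies on chromosome 5 at 108546356 to 108549165, with 154 tags, a score of 449 and a fold of 12.6. Another peak of replicate 1 lies 9 bp away, and the replicate 2 partner is 5392 bp long with 221 tags, a score of 446 and a fold of 8.83.

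The next 3 regions by score had partners of up to 3473 bp. The region on chromosome 4 at 108003655 to 108006447 had 154 tags and a fold of 11.3 in replicate 1, and its partner of 3473 bp had 134 tags and a fold of 7.92. The region on chromosome 10 at 67149949 to 67152475 had 150 tags and a fold of 11.7, and its partner of 2479 bp had 114 tags and a fold of 7.86. The region on chromosome 6 at 65254254 to 65257182 had 170 tags and a fold of 9.17, and its partner of 3159 bp had 161 tags and a fold of 10.5. None of these 4 top regions held an ATAC peak, although one lies 835 bp from the region on chromosome 6.

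The 3 regions with the most tags per kb had folds below the class median of 6.39, which did not hold as a trend. Over all 9553 regions, fold and tags per kb had a Spearman rho of 0.0812. The densest lies on chromosome 2 at 135874717 to 135875823, with 164 tags per kb in replicate 1 and 115 in its replicate 2 partner, and folds of 6.07 and 5.65. The region on chromosome 19 at 16984885 to 16986992 had 135 and 111 tags per kb, with folds of 3.83 and 3.44. The region on chromosome 8 at 143302764 to 143305208 had 75.7 and 73.3 tags per kb, with folds of 3.50 and 2.86, and held an ATAC peak. The folds of the last 2 lie far below the lower quartile of the class, 5.48 in replicate 1, while their tag densities lie above its upper quartile.

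Short shared peaks were most frequent on chromosomes 4, 5 and 6 and least frequent on chromosomes 22 and 19. Over all autosomes there were 3.43 per Mb of the span between the outermost peaks in replicate 1, against 2.95 long peaks and 1.49 short peaks of replicate 1 alone. With peaks within 1000 bp joined, the order of short shared and long peaks turned, at 2.90 and 3.15 per Mb in replicate 1 and 2.87 and 3.15 in replicate 2. Without joining, chromosome 4 had 4.94 per Mb, from 944 regions, and chromosome 5 had 4.56. Chromosome 22 had 0.885 per Mb, from 31 regions, and chromosome 19 had 1.14, from 67. Replicate 2 gave 4.96 for chromosome 4 and 0.971 for chromosome 22. Across the 22 autosomes, the density of short shared peaks followed that of long peaks, with a Spearman rho of 0.869 in replicate 1 and 0.826 in replicate 2, where points of a chromosome share a library and a span.

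The balance between short and long peaks differed most on a few chromosomes. Chromosome 13 had 373 short shared and 180 long peaks in replicate 1, a ratio of 2.07, and 51.1% of its peaks were short and shared. It also had the fewest ATAC peaks per Mb of any autosome, 9.91. Chromosome 21 had a ratio of 1.83 with 19.4 ATAC peaks per Mb, close to the 19.2 of all autosomes. In replicate 2 the ratio was 1.97 on chromosome 13 and higher, 2.15, on chromosome 21. Chromosome 19 stood at the other end, with 67 short shared and 105 long peaks, a ratio of 0.638, 22.6% short and shared, and 26.5 ATAC peaks per Mb. Over 22 autosomes the percentage of peaks that were short and shared had a Spearman rho of -0.61 with ATAC peaks per Mb in replicate 1 and -0.654 in replicate 2. The ratio of short shared to long peaks had a weaker one, -0.508 in replicate 1 and -0.344 in replicate 2. Within the class, median tags per kb by chromosome ran from 39.0 on chromosome 13 to 42.4 on chromosome 20 in replicate 1. In replicate 2 the medians ran from 36.5 on chromosome 16 to 41.2 on chromosome 20. In replicate 1 the median gap to the next short shared peak was shortest on chromosome 5, 106 kb, and longest on chromosome 19, 293 kb. In replicate 2 chromosome 5 had 109 kb and chromosome 19 had 239.6 kb, and chromosome 22 had the longest, 283 kb. The median distance to a long peak in replicate 1 was shortest on chromosome 14, 61.7 kb, and longest on chromosome 21, 274 kb. In replicate 2 these were 64.1 and 310.4 kb, and chromosome 22 had 463 kb, against 161 kb in replicate 1. On chromosome 19, 7 of 67 short shared peaks overlapped an ATAC peak in replicate 1 and 4 of 75 in replicate 2, and the 7 made it the autosome with the highest share, 10.4%.

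**Figure D2:**
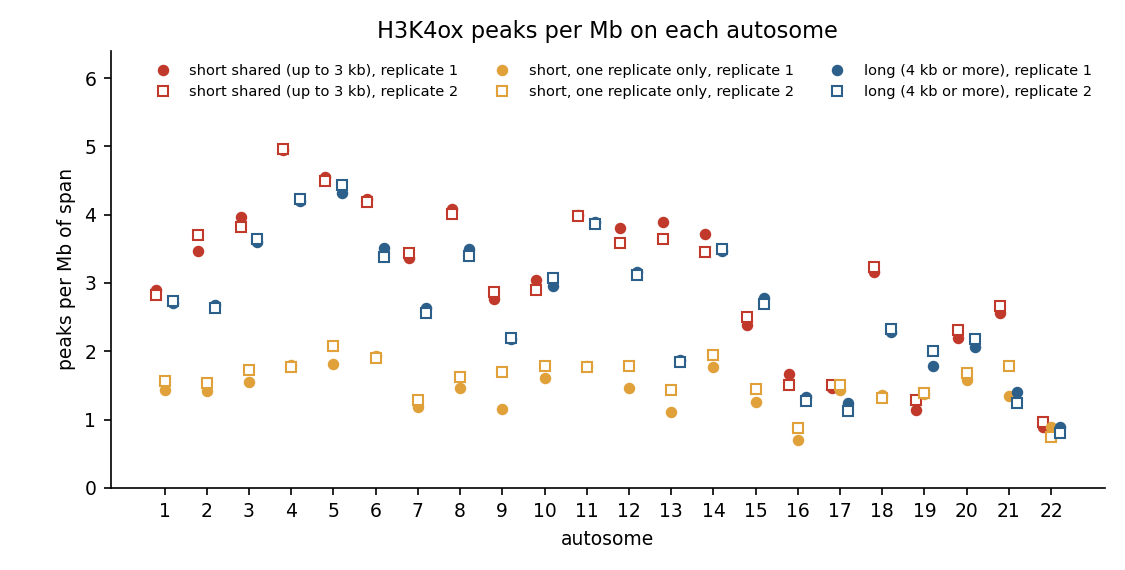
H3K4ox peaks per Mb of span (vertical axis) on each autosome, for short shared peaks (red), short peaks of one replicate only (orange) and long peaks (blue); filled circles are replicate 1 and open squares replicate 2. Red and blue rise and fall together from 4.94 and 4.20 per Mb on chromosome 4 to 0.885 per Mb each on chromosome 22 in replicate 1, and part most on chromosome 13.

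Along the chromosomes, short shared peaks thinned out toward both ends. When each span was divided into 10 equal parts, the first and last held 8.20% and 6.49% of the short shared peaks of replicate 1, and the seventh held the most, 1144 regions. Long peaks had 7.53% and 5.53% in the end parts. ATAC peaks ran the other way, with 12.1% and 13.2% in the end parts and 8.15% in the fifth. Replicate 2 gave 7.97% and 6.79% for short shared peaks in the end parts.

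Short shared peaks were unevenly spaced, with close neighbours and long empty stretches. The gap from one short shared peak to the next had a median of 131 kb in replicate 1 (quartiles 42.7 and 331 kb) and 134 kb in replicate 2, against 152 and 154 kb between neighbouring long peaks. This order turned when peaks within 1000 bp were joined, with 165 kb between short shared peaks and 142 kb between long peaks in replicate 1, and 168 and 142 kb in replicate 2. A gap of at most 10 kb followed 11.5% of short shared peaks in replicate 1, against 5.20% of long peaks. Of the 1096 such gaps between short shared peaks, 590 were within 1 kb, and gaps of 1 to 10 kb followed 5.31% of short shared peaks and 4.78% of long peaks. Of 9531 gaps between short shared peaks, 508 exceeded 1 Mb, or 5.33%. Such gaps were more frequent between long peaks, at 7.01%, and between short peaks of replicate 1 alone, at 20.1%. The nearest peak of any class lay a median of 20.4 kb from a short shared peak, 24.3 kb from a long peak and 35.1 kb from a short peak of replicate 1 alone. Gaps were not corrected for unassembled sequence, so the longest ones can span it.

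The next peak along the chromosome was of the same class more often than the class's share of all peaks. After a short shared peak, the next peak was another short shared one in 42.9% of cases in replicate 1 (95% interval 41.9 to 43.9), against 38.7% of all peaks, and a long one in 30.7%, against 33.4% of all peaks. After a long peak, the next was short and shared in 35.7% and long in 36.9%. In replicate 2 a short shared peak was followed by another in 41.2% of cases, against 37.8% of all peaks. These counts include the regions within 1 kb of each other described above. After joining, the share was 36.8% in replicate 1, against 34.2% of all peaks, and 35.2% in replicate 2, against 33.3%. The longest run without any other class between held 11 short shared peaks, on chromosome 7 at 124763370 to 126227642 in replicate 1. The longest run of replicate 2 also held 11 but lay elsewhere, on chromosome 2 at 167439607 to 167796840. Of 8208 stretches between neighbouring long peaks, 4142, or 50.5%, held no short shared peak, and the most in a stretch was 18.

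In windows of 1 Mb, short shared peaks were unevenly spread. The 2802 windows of replicate 1 held a mean of 3.41, with a variance 2.61 times the mean, and 460 windows, or 16.4%, held none. Only 2685 of the 2802 held an H3K4ox peak of any class, and windows were not corrected for unassembled sequence. Windows without any peak add to the 460 and can raise the variance. The 126 windows with 10 or more short shared peaks held 1445 regions, or 15.1% of the class. The fullest window was on chromosome 14 at 46000001 to 47000000, with 20 short shared and 6 long peaks in replicate 1 and 20 and 3 in replicate 2. The next was on chromosome 6 at 75000001 to 76000000, with 18 and 7 in replicate 1 and 16 and 7 in replicate 2. Long peaks had a variance 2.41 times their mean, so unevenness at this scale was shared by both classes.

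Short shared peaks were denser near long peaks. The nearest peak of 4000 bp or more lay a median of 85.9 kb away in replicate 1 (quartiles 30.4 and 206 kb) and 83.5 kb in replicate 2. For short peaks of 1 replicate alone the medians were 116 kb in both lists. Long peaks lay a median of 70.3 kb from another long peak in replicate 1. Within 100 kb of a long peak were 54.4% of short shared peaks (95% interval 53.4 to 55.4) and 45.9% of short peaks of replicate 1 alone (44.4 to 47.5). A distance of more than 1 Mb was rare, at 1.29% of short shared peaks and 3.19% of short peaks of replicate 1 alone. The region farthest from a long peak lies on chromosome 21 at 48096387 to 48097842, 6.61 Mb away, with 53 tags in replicate 1 and 60 in its partner.

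Counting per Mb of ground at each distance takes account of how much of the genome lies that far from a long peak. Ground covers the whole span, unassembled sequence included. Densities in the farthest bands can therefore be too low, for all classes alike. In replicate 1, short shared peaks had 5.78 centres per Mb at 5 to 10 kb from the edge of a long peak, 5.62 at 10 to 25 kb and 4.38 at 50 to 100 kb. Their density was 3.48 per Mb at 100 to 250 kb, and 1.24 per Mb beyond 500 kb. Short peaks of replicate 1 alone, which are weaker calls by score, fell off less, with 2.5 per Mb at 5 to 10 kb and 1.09 beyond 500 kb. Replicate 2 gave 5.68 and 1.29 for short shared peaks and 2.21 and 1.06 for short peaks of that replicate alone. Up to 5 kb the density of short shared peaks was lower, 4.70 in replicate 1, in a zone whose nearest ground no centre of a separate peak can reach. Under the joining of peaks within 1000 bp, the median distance to a long peak was 80.8 kb for short shared peaks and 111 kb for short peaks of replicate 1 alone.

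**Figure D3:**
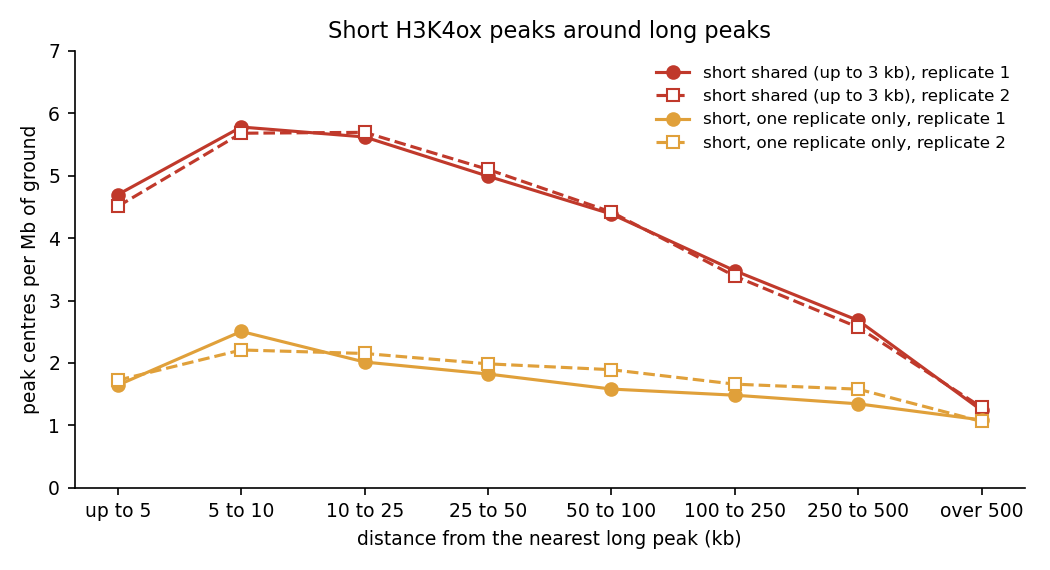
Peak centres per Mb of ground (vertical axis) by distance in kb from the edge of the nearest long peak (bands, horizontal axis), for short shared peaks (red) and short peaks of one replicate only (orange); solid lines with circles are replicate 1 and dashed lines with squares replicate 2. Red stands at 5.78 per Mb at 5 to 10 kb and 1.24 per Mb beyond 500 kb in replicate 1, and orange at 2.5 and 1.09. Ground includes unassembled sequence.

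Nearness to a long peak had almost no rank correlation with tag density. Short shared peaks within 10 kb of a long peak had a median of 40.8 tags per kb, those at 100 to 500 kb had 40.4 and the 123 regions beyond 1 Mb had 41.7. Over 9553 regions the Spearman rho of distance to a long peak with tags per kb was -0.0137 in replicate 1 and -0.00238 in replicate 2. Median lengths in these bands were 1975 bp, 1992 bp and 1881 bp.

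Few short shared peaks overlapped an ATAC peak. In replicate 1, 307 of 9553, or 3.21% (95% interval 2.87 to 3.59), overlapped an ATAC peak, against 634 of 8230 long peaks, or 7.70% (7.14 to 8.30), and 124 of 4144 short peaks of replicate 1 alone, or 2.99% (2.49 to 3.56). Replicate 2 gave 3.16%, 7.66% and 3.05%. The share followed length, from 2.21% at 1 to 1.5 kb to 4.16% at 2.5 to 3 kb among short shared peaks. Over equal windows of 1500 bp to each side of the centre, the share was 4.48% for short shared peaks (4.07 to 4.91), 4.29% for long peaks (3.86 to 4.75) and 6.11% for short peaks of replicate 1 alone (5.40 to 6.88). The larger share of long peaks was thus not seen over equal windows. These windows reach past the edges of short peaks, whereas they leave out the outer parts of long peaks.

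Per Mb of peak, short shared peaks held 15.7 ATAC centres in replicate 1, long peaks 16.1 and short peaks of replicate 1 alone 19.5, while the autosomes as a whole had 19.2 ATAC peaks per Mb. Replicate 2 gave 15.4, 16.0 and 22.1. Counting every ATAC peak that overlapped by 1 bp or more gave 16.3, 16.4 and 21.0 in replicate 1. The ATAC peaks in question were weak. Those in short shared peaks had a median pileup of 4 and a median fold of 3.76, against 4 and 3.78 for all 53481 autosomal ATAC peaks. A −log10 q-value of at least 1.3 was reached by 70 of the 313 ATAC peaks in short shared peaks, or 22.4%, against 23.9% of all. With only such ATAC peaks, a limit chosen after seeing the data, the densities by overlap were 3.65 per Mb in short shared peaks, 3.03 in long peaks and 5.63 in short peaks of replicate 1 alone. The order of short shared and long peaks therefore depends on that limit. The depth of the ATAC list limits these shares, and an overlap of 0 does not show closed chromatin.

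The surroundings of short shared peaks were also poorer in ATAC peaks than those of the other classes. The nearest ATAC peak lay a median of 23.5 kb from a short shared peak, 18.9 kb from a long peak and 18.2 kb from a short peak of replicate 1 alone. Within 10 kb an ATAC peak was found for 27.4% of short shared peaks (95% interval 26.5 to 28.3) and 34.6% of long peaks (33.6 to 35.6). In replicate 2 these were 27.5% and 34.5%. A longer peak reaches farther, which a count per Mb of ground takes out. The zone of 5 to 10 kb from a short shared peak had 16.1 ATAC centres per Mb, against 18.2 around long peaks and 20.4 around short peaks of replicate 1 alone. Replicate 2 gave 15.7, 17.5 and 19.2. At 250 to 500 kb from the nearest short shared peak the density was 22.1 per Mb in both replicates. With ATAC peaks of −log10 q at least 1.3, the median distance was 91.1 kb from short shared peaks, 79.2 kb from long peaks and 78.4 kb from short peaks of replicate 1 alone, in the same order.

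**Figure D4:**
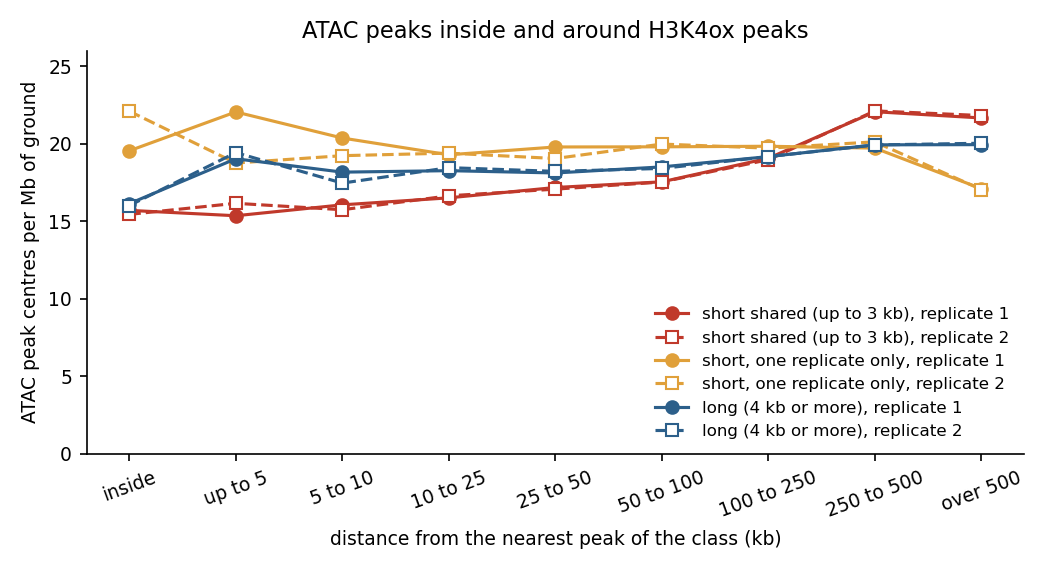
ATAC peak centres per Mb of ground (vertical axis) inside and at increasing distance in kb from the nearest peak of each class (horizontal axis), for short shared (red), short of one replicate only (orange) and long peaks (blue); solid lines are replicate 1 and dashed lines replicate 2. Red stays lowest from 5 to 100 kb, at 16.1 per Mb in the 5 to 10 kb band of replicate 1 against 18.2 for blue, and reaches 22.1 at 250 to 500 kb.

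The same contrast showed at the scale of 1 Mb. Only windows with an H3K4ox peak of any class were counted, 2685 of 2802 in replicate 1. Leaving out the empty windows can raise the means. In the 407 counted windows with fewer than 10 ATAC peaks, replicate 1 had a mean of 4.70 ± 2.91 short shared peaks (SD over windows), against 2.81 ± 2.19 long peaks. In the 436 windows with 30 or more ATAC peaks the means were 2.06 ± 2.20 short shared and 2.34 ± 2.47 long peaks. Short peaks of replicate 1 alone had means of 1.45 ± 1.41 and 1.71 ± 1.43 in these windows. The spread between windows was wide, and neighbouring windows are not independent. Over the 2685 windows with a peak, the Spearman rho with the ATAC count was -0.351 for short shared peaks, -0.109 for long peaks and 0.0593 for short peaks of replicate 1 alone, and in replicate 2 it was -0.351, -0.105 and 0.0522. These points share their libraries. Window counts were not corrected for copy number. Neither this contrast nor the one between chromosomes was repeated with ATAC peaks of −log10 q at least 1.3.

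**Figure D5:**
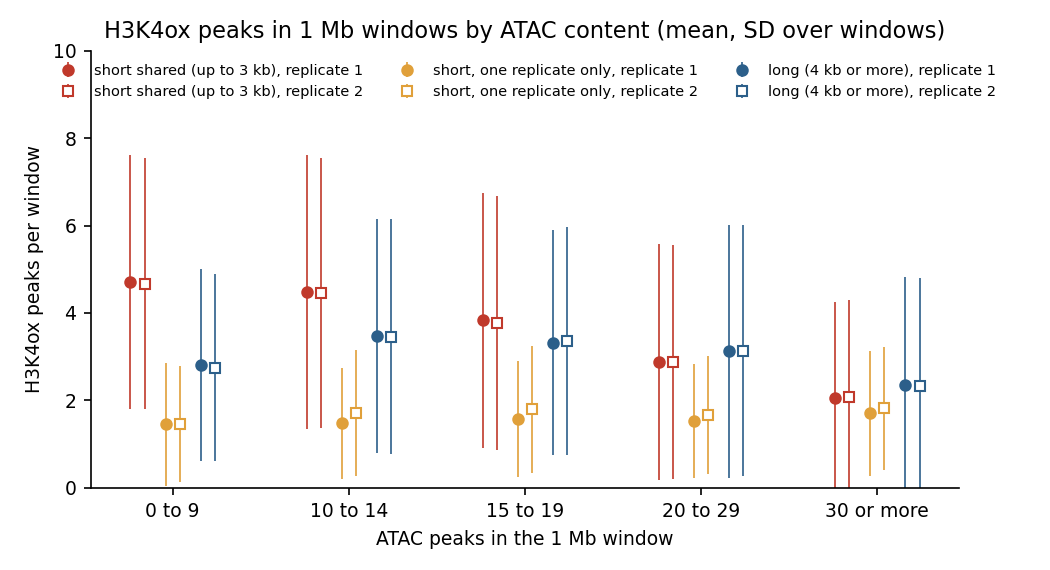
Mean number of H3K4ox peaks per 1 Mb window (vertical axis) by the number of ATAC peaks in the window (horizontal axis), with bars of 1 SD over windows, clipped at 0; red is short shared, orange short of one replicate only and blue long peaks, with circles for replicate 1 and squares for replicate 2. The red mean is 4.70 in windows with fewer than 10 ATAC peaks and 2.06 in windows with 30 or more, in replicate 1. Windows without any H3K4ox peak are left out.

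The few short shared peaks with an ATAC peak looked like the rest of the class. The 307 such regions had medians of 2128 bp, 41.7 tags per kb and a fold of 6.44 in replicate 1, against 1992 bp, 40.6 tags per kb and a fold of 6.39 for the 9246 without one. Their interquartile ranges overlapped almost wholly, at 37.8 to 46.2 and 36.1 to 45.0 tags per kb. The regions with an ATAC peak lay a median of 77.1 kb from a long peak and those without one 86.0 kb.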

How the data were processed

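The authors deposited 1 H3K4ox peak list per replicate, without a header and in the layout of a MACS 1.x table. The columns have no names, so their meaning was inferred from that layout and from the values, and every tag, score, fold and FDR here rests on it. So read, each deposited row gives length, summit, the count of tags in the peak, a score (minus 10 times log10 of the peak p-value), a fold ratio over a background not given in the sources used here, and a false discovery rate in percent. The deposited ATAC list gives, per the file headers, pileup (a coverage signal), enrichment as a ratio, and p and q, each as −log10. The submitters' processing notes name Bowtie and the build GRCh37. Peak caller, versions, read shifting and duplicate handling are not given in the sources used here. Within each list, peaks were ranked and filtered by the scores and folds of the authors, which were not compared between lists as a change.

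Overlaps (1 bp or more), edge-to-edge distances, gaps and densities were computed from 1-based coordinates on 22 autosomes with Python 3.11.15, numpy 2.4.6, pandas 2.3.3 and scipy 1.17.1, and figures with matplotlib 3.10.9. Chromosome spans run between the outermost peaks, and ground per distance band was counted in bins of 100 bp. Neither was corrected for unassembled sequence. The helpers matched brute force on 800 simulated intervals. The regions, classes and measures were chosen with earlier results of these data known. Regions named are the 4 with the highest score, the 3 with the most tags per kb, the one farthest from a long peak, the closest pair, the 2 fullest windows of 1 Mb, and extreme chromosomes. FPKM values were not used, since no annotation of the files' build tied genes to peaks. No label says whether the ChIP replicates came from separate cultures.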

Additional observations from a re-analysis of the deposited data

How the results depend on the processing

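Of 104 alternative values, 34 moved by no more than 1 SD between the 2 replicates (1.5 times for counts) and 70 moved further; this SD is small because the rule makes the replicates share regions. With a length limit of 2000 bp there were 4798 regions (1.72 per Mb) with 37.9 tags per kb, a median gap of 285 kb, a median distance to a long peak of 88.8 kb and an ATAC share of 2.54%. With a limit of 2500 bp there were 2.80 per Mb, a gap of 164 kb and an ATAC share of 3.0%. Asking for 50% of the region to overlap gave 3.39 per Mb and a gap of 133 kb. A score of at least 100 left 4771 regions (1.71 per Mb) with 43.3 tags per kb, a gap of 274 kb, a distance of 83.6 kb and an ATAC share of 3.75%. An FDR of at most 1% gave 3.30 per Mb and a gap of 136 kb. Replicate 2 as the index list gave 38.9 tags per kb, 3.40 per Mb, a gap of 134 kb, a distance of 83.5 kb, an ATAC share of 3.16% and a summit distance of 159 bp. Dropping the need for the other replicate gave 13697 and 14053 short peaks, with 37.8 to 39.7 tags per kb, 4.91 to 5.03 per Mb, gaps of 102 to 103 kb, distances of 92.5 to 94.1 kb and ATAC shares of 3.12 to 3.15%.

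The median distance to a long peak was 232 kb with long peaks of 5000 bp or more, 71.7 kb with a lower length limit for long peaks and 89.5 kb from centre to centre, where the gap was 134 kb. The ATAC share was 3.09% with the ATAC centre inside the region, 4.48% in windows of 1500 bp to each side, and 0 with a −log10 q-value of at least 10, which 1 autosomal ATAC peak reached. Alternatives chosen after seeing the data gave an ATAC share of 0.733% with −log10 q of at least 1.3. Joining peaks within 1000 bp gave 2.90 per Mb, a gap of 165 kb and a distance of 80.8 kb, which turned the order of short shared and long peaks in density and gap. Regions with no other peak within 5000 bp gave 2.55 per Mb, a gap of 199.9 kb, a distance of 95.7 kb and an ATAC share of 3.15%. Fewer or more peaks admitted change gaps and densities by construction, and the cause of the other shifts was not tested. No paired analysis was possible because the ChIP-seq replicates form 1 group and no conditions were compared. Depth is unknown for all libraries, and the low ATAC pileups limit every share of regions with accessible chromatin.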

Other observations

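Chromosome X was outside the rule. The autosomes had 3.43 short shared peaks per Mb in replicate 1 and 3.40 in replicate 2, while chromosome X had 6.89 (1060 peaks) and 7.09 (1087 peaks). Long peaks did not show this difference, at 2.95 and 2.94 per Mb on the autosomes and 2.64 and 2.49 on chromosome X. No autosome reached the X density of short shared peaks, the highest being 4.94 per Mb on chromosome 4 in replicate 1. Chromosomes X and Y together held 2106 peaks in replicate 1 and 2137 in replicate 2. Of these, 1912 and 1970 lay on X and the rest were called on chromosome Y. Copy number and read mapping on these chromosomes were not examined, and the cause of the X density was not tested.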
